A study of Homo sapiens with 10 samples.

Results

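The genes described here encode surface antigens of acute leukaemia, the proteins by which flow cytometry classifies blasts and at which antibodies, antibody-drug conjugates and engineered T cells are directed. They were 9 symbols listed by name, CD22, MS4A1, CD38, MME, CD34, CD24, CD52, PROM1 and CSPG4, matched through GENCODE 29 to the identifiers of the count files, where each symbol had 1 of 63677 identifiers. The study asked how BCP-ALL cells adapt when they become insensitive to VEN, an inhibitor of the anti-apoptotic protein BCL-2. RS4;11, an established BCP-ALL line with a KMT2A rearrangement, was kept in VEN at a dose raised stepwise over months, which gave 5 VENins lines, or in the solvent DMSO, which gave 5 VENsens lines. By the study's methods VENins lines stayed in VEN, which was washed off before analysis. Exposure to VEN and insensitivity to it therefore cannot be told apart in these lines. From each line 1 poly(A) RNA library was sequenced, with 20631907 to 28323643 reads counted on genes. All 10 lines descend from the same cell line, so p-values measure the spread between separately kept cultures and not between patients. Levels are given as CPM, a library's counts relative to its total after TMM scaling, and differences as log2 fold changes of VENins against VENsens lines. Lines with the same number form a pair in the fit, although the numbers did not pair the libraries in the data.

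B-cell precursors change their surface in a known order. CD34 and PROM1 mark early progenitors, MME (CD10) and CD24 mark committed B precursors, CD22 appears with commitment to the B lineage, and MS4A1 (CD20) is a marker of later stages. BCP-ALL with a KMT2A rearrangement is known for lacking CD10 and for carrying CSPG4 (NG2), a proteoglycan that healthy blood cells hardly show. CD52 and CD24 are small glycosylated peptides held in the membrane by a glycosylphosphatidylinositol (GPI) anchor, CD38 is an ectoenzyme that consumes NAD, and CD22 is an inhibitory receptor that binds sialic acid.

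The labelled identity was visible in the markers of B-cell precursors. All 10 genes of that list were above 1 CPM, and their summed level averaged 3564 ± 38.8 CPM over VENsens lines and 3549 ± 169 CPM over VENins lines (n = 5 each, SD). IGLL1, a component of the surrogate light chain, had the highest mean over the 10 libraries, 723 CPM, while PAX5 was above it in all 5 VENsens lines and below it in all 5 VENins lines. The genes of this list went both ways, with log2 fold changes from -0.36 to 0.24. Of the 10 genes 6 had an unadjusted p under 0.05, 3 lower and 3 higher in VENins lines, where 16.2% of all tested genes did. Of this list edgeR called 1, PAX5 (0.197% of all tested genes), and DESeq2 called 1 with and 2 without the line number (1.3% and 4.41% of all). Most markers of other cell types averaged 1 CPM or less. Those above it were 1 gene of the T- and NK-cell list, 2 of the myeloid, 2 of the erythroid and megakaryocytic and 3 of the stromal and endothelial list. Of the 10 T- and NK-cell genes, 7 had fewer than 10 counts in all libraries together, among them CD3D, CD3G, CD2, CD4 and CD8A, and the summed level of 46.2 to 65.0 CPM was nearly all NKG7. The myeloid list summed to 12.5 to 18.3 CPM. It was led by CSF1R (9.51 CPM on average), with ITGAM at 3.81 to 5.66 CPM and S100A8 and S100A9 at 0 counts. The stromal and endothelial list summed to 16.3 to 22.1 CPM, led by PDGFRB. In it COL1A1 stood at 1.93 to 3.34 and KDR at 2.27 to 3.87 CPM, and DCN, LUM, PECAM1 and CDH5 at 0. The erythroid and megakaryocytic list summed to 45.8 ± 5.63 CPM over VENsens lines and to 34.2 ± 7.74 CPM over VENins lines, where 4 lines were below all VENsens lines and line 5, at 46.96 CPM, was inside their range. ITGA2B, an integrin subunit of megakaryocytes, was its most abundant gene (36.3 CPM on average), with a log2 fold change of -0.48 (adjusted p = 0.061 in edgeR, and 0.0329 without pair 4), while HBA1, PF4 and PPBP were at 0 in every library. Of the 2 tested genes of this list edgeR called 0 (0.197% of all tested genes) and 1 had an unadjusted p under 0.05 (16.2% of all). DESeq2 called 1 with and 0 without the line number (1.3% and 4.41% of all). The part of ITGA2B in the results on the antigens was not tested. In cultures, fewer cells of a kind and less RNA per cell cannot be told apart.

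Some lines stood apart from the others of their condition. A value was far from the other 4, with a gap above 0.71 of the range, for 643 tested genes in VENins line 5 (3.84%) and for 635 in VENsens line 2 (3.79%). VENins line 4, in which several antigens differed from the other VENins lines, had 155 such genes (0.925%). It was the VENins line nearest to the VENsens mean for 4413 of the tested genes (26.3%), the highest share of these lines, and for 7 of the 32 tested antigens (21.9%), where VENins line 3 was nearest for 8. DNTT, the terminal transferase of B-cell precursors, singled out after its values were seen, stood at 27.3 CPM in this line, against 1.08 to 3.38 CPM in the other VENins lines and 3.05 to 8.31 CPM in VENsens lines. What sets this line's values was not tested.

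Compared per length of exon, 5 members stood well above the others. MS4A1 and MME were detected in every library at few counts, CD34 had at most 2 counts in a library, and CD24 was listed at 0 but could not be placed in the order. CD52 had the highest level, 94.5 ± 19.6 CPM per kb (SD over 10 libraries), followed by PROM1 at 56.5 ± 2.73, CD22 at 33.8 ± 2.12, CSPG4 at 18.7 ± 2.69 and CD38 at 17.0 ± 1.66 CPM per kb. CSPG4 and CD38 did not differ in level beyond their spread, and their order turned when the longest annotated transcript was used as the length (18.7 and 20.6 CPM per kb). The lowest library of CD52, at 59.5 CPM per kb, lay below the highest of PROM1, at 61.1, but within each of the 10 libraries CD52 was the higher. CSPG4 was above CD38 in 7 of the 10. Among the 11928 tested protein-coding genes, the levels per length of CD52, PROM1 and CD22 stood at percentiles 97.4, 94.9 and 90.0, and those of CSPG4 and CD38 at 79.4 and 77.4. MS4A1 and MME stood at 0.180 ± 0.0653 and 0.109 ± 0.0282 CPM per kb, percentiles 5.04 and 2.40, also within their spread of each other. CD34 and CD24 had too few counts to be tested.

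**Figure D1:**
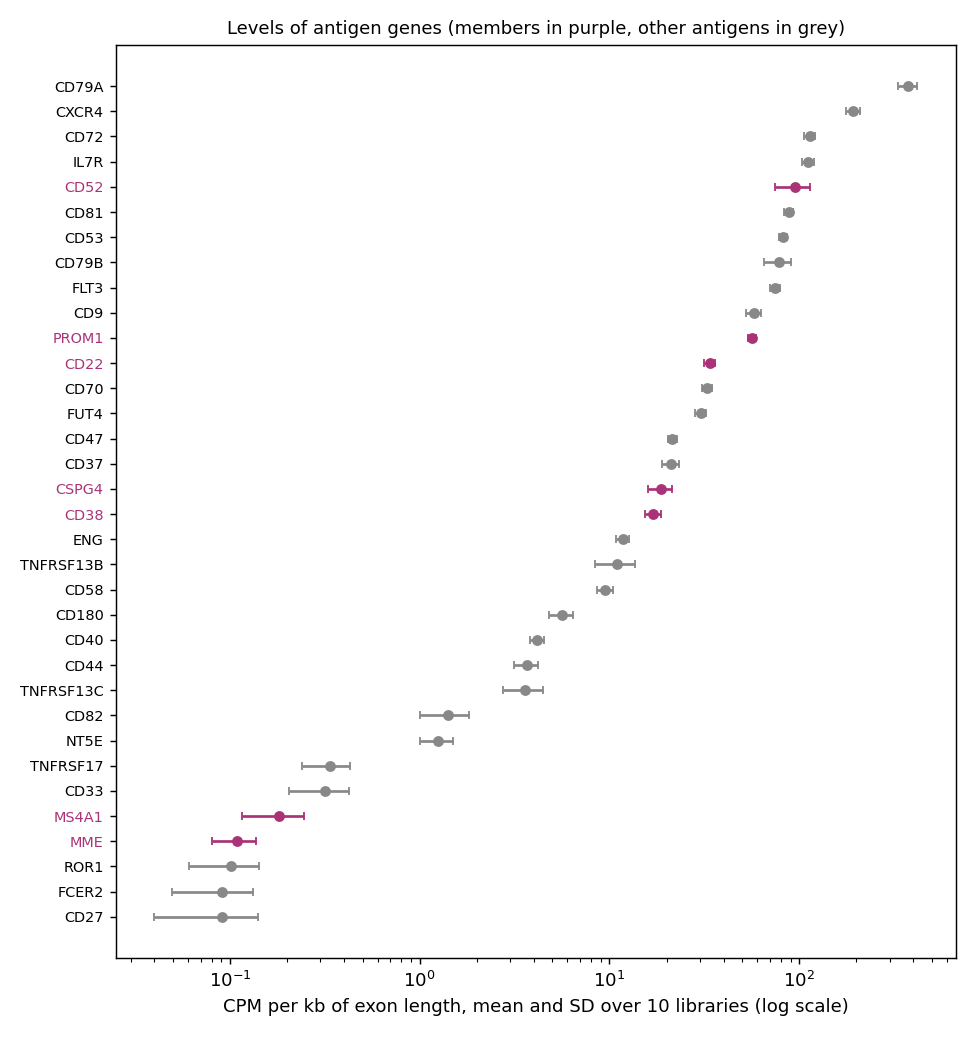
Level per length of the members (purple) and of other leukaemia and B-cell antigens (grey), in CPM per kb of exon length on a log axis, as mean and SD over 10 libraries. Genes under 0.05 CPM per kb and those not reported are left out. CD52 reached 94.5 CPM per kb, and MS4A1 and MME stood at 0.180 and 0.109 CPM per kb.

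In a wider list of 36 further antigens of B cells and leukaemia, high levels per length were those of CD79A, a signalling chain of the B-cell receptor (376 ± 43.3 CPM per kb), the chemokine receptor CXCR4 (192 ± 16.8), CD72 (114 ± 7.55) and the interleukin receptor IL7R (112 ± 8.71 CPM per kb). CD52 came next below IL7R, within its spread of it. Of the 36 genes, 11 had too few counts to be tested, none with more than 16 counts in a library. CD99, IL3RA and CRLF2, which lie in the region shared by chromosomes X and Y, were listed at 0 in every library, as were CD276 and CEACAM6. An entry of 0 counts allows up to 0.106 to 0.145 CPM of counted reads in these libraries. This limit covers counting error only and no reads set aside before counting, so it is no limit on the RNA of genes with near copies.

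No member passed the test between conditions. Of the 7 tested members, 0 had a Benjamini-Hochberg adjusted p under 0.05 over all tested genes in the quasi-likelihood F test of edgeR, beside 33 of all 16756 tested genes (0.197%). An unadjusted p under 0.05 was found for 3 members, CSPG4, CD52 and CD38, and for 2710 of all tested genes (16.2%). In VENins lines 5 members were lower and 2 higher. Their median log2 fold change was -0.09, and that of all tested genes 0.0035. DESeq2 called 1 member, CSPG4, both with the line number in the model, where it called 217 genes (1.3%), and without it (739 genes, 4.41%). Without line pair 4, edgeR called CSPG4 and CD52, beside 331 of 16768 tested genes (1.97%). With no filter on low counts it called the same 2 members, beside 664 of 32884 genes (2.02%).

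CSPG4 (ENSG00000173546, GRCh38 chr15:75674322-75712848, minus strand) encodes the NG2 proteoglycan, a large transmembrane core protein with chondroitin sulfate chains. In VENsens lines 1 to 5 its level was 169, 166, 168, 172 and 175 CPM. In VENins lines 1 to 5 it was 129, 113, 132, 172 and 151 CPM. The VENsens lines lay close together, 4 VENins lines were below all of them, and VENins line 4 stood inside the VENsens range. The log2 fold change was -0.30 (standard error 0.07, 95% interval -0.45 to -0.15), from 170 ± 3.39 to 139 ± 23.0 CPM (SD, n = 5 each). The adjusted p was 0.0837 in edgeR and 0.0124 in DESeq2 with the line number. Leaving out pair 4 gave -0.38 with an edgeR adjusted p of 0.00711, and leaving out pair 2 gave -0.24 with 0.486. Over 13 alternatives the adjusted p lay between 0.000235 and 0.486.

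CD52 (ENSG00000169442, GRCh38 chr1:26317957-26320523, plus strand) encodes the target of the antibody alemtuzumab. Its level in VENsens lines 1 to 5 was 97.1, 93.9, 100.2, 92.2 and 106 CPM. In VENins lines 1 to 5 it was 55.7, 70.2, 75.1, 116 and 77.4 CPM. Here too 4 VENins lines were below every VENsens line, whereas VENins line 4 was above all of them. Over all pairs the log2 fold change was -0.35 (standard error 0.11, 95% interval -0.58 to -0.12), with an adjusted p of 0.148 in edgeR and 0.347 in DESeq2 with the line number. Leaving out pair 4 gave -0.52 (95% interval -0.69 to -0.36) with an edgeR adjusted p of 0.00076, in a range from 2.92e-05 to 0.564 over 13 alternatives. When VENins line 4 alone was left out of a model without the line number, a choice made after its values were seen, CD52 and CSPG4 had adjusted p-values of 0.0018 and 0.0036 in edgeR, beside 783 of 16836 genes called (4.65%).

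**Figure D2:**
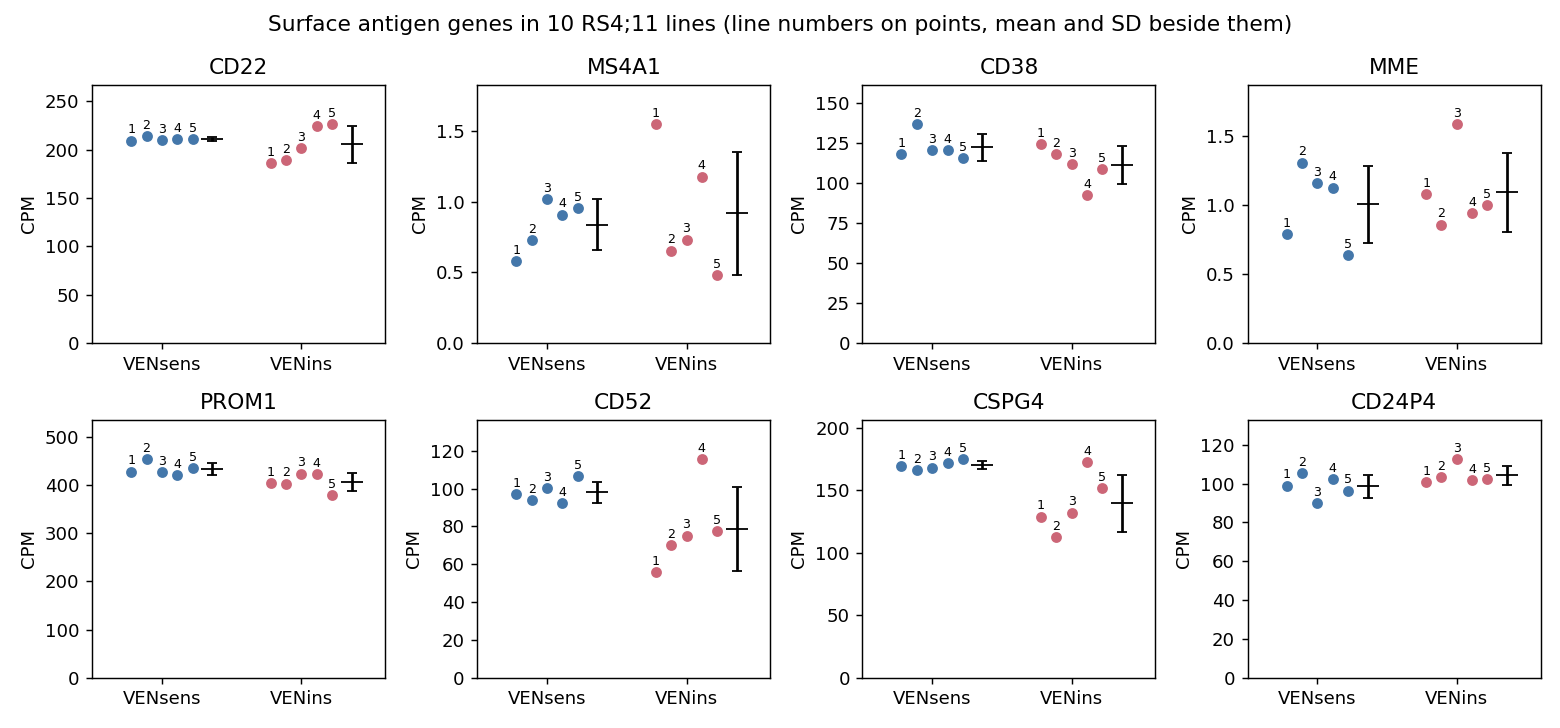
CPM of the 7 tested members and of CD24P4 in each line, with the line number above each point and mean ± SD beside each group of 5. CSPG4 and CD52 were lower in VENins lines 1, 2, 3 and 5 than in any VENsens line, and VENins line 4 had 172 and 116 CPM.

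The stretches around the annotated starts of CSPG4 and CD52 are shown because the 2 genes had a like pattern over the lines. They hold 300 bases each and come from RefSeq (GRCh38.p14), for CSPG4 at chr15:75712799-75713098 on the minus strand and for CD52 at chr1:26317708-26318007 on the plus strand. Capitals mark the letters GAGGAA, an ETS motif, on either strand.
CSPG4: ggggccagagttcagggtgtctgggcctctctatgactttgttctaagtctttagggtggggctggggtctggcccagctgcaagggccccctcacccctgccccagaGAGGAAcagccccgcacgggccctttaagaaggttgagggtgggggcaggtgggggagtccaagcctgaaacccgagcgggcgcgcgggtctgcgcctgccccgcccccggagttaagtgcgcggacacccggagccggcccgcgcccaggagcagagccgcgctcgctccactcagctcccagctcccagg
CD52: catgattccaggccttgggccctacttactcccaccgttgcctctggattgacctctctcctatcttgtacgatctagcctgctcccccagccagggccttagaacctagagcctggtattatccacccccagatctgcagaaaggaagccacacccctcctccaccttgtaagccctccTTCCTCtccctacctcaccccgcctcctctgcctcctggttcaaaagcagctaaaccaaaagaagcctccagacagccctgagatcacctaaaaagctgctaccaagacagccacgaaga
Each holds these letters once, and 27.9% of 35116 promoters of the same length hold them at least once. The letters are also in the CD34 window and in 2 of 4 windows of PROM1, and not in those of CD22, CD38, MME and CD24. MS4A1 has no entry. Neither holds the RUNX motif TGTGGT, the EBF1 motif CCCNNGGGA or the TATA letters TATAAA, which are in 13.1%, 8.86% and 11.5% of promoters. The windows differ in base composition, with 69.3% G and C for CSPG4 and 55.3% for CD52. A match is a description of letters and says nothing about binding.

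CD38 (ENSG00000004468, GRCh38 chr4:15778275-15853230, plus strand), the target of daratumumab, was at 118, 137, 121, 120 and 116 CPM in VENsens lines 1 to 5. In VENins lines 1 to 5 it was at 124, 118, 112, 92.5 and 109 CPM. The groups overlapped, with VENsens line 2 the highest and VENins line 4 the lowest of all 10, so that line 4 had the opposite position to the one it had for CD52. The log2 fold change was -0.14 (95% interval -0.28 to -0.0057, adjusted p = 0.288 in edgeR), and without pair 4 it was -0.08. PROM1 (ENSG00000007062, GRCh38 chr4:15963076-16084378, minus strand), which encodes the progenitor antigen CD133, lies 109846 bases from CD38. It stood at 428, 454, 428, 421 and 435 CPM in VENsens lines and at 404, 403, 424, 423 and 379 CPM in VENins lines 1 to 5. Its groups overlapped narrowly, 3 VENins lines being below all VENsens lines, with a log2 fold change of -0.09 (95% interval -0.20 to 0.02, adjusted p = 0.402 in edgeR). This fold change was -0.045 with the trend on exon length taken out.

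CD22 (ENSG00000012124, GRCh38 chr19:35319261-35347355, plus strand), the target of inotuzumab ozogamicin, stood at 209, 214, 210.02, 211 and 211 CPM in VENsens lines 1 to 5. In VENins lines 1 to 5 it was 186, 189, 201, 224 and 226 CPM. No VENins line lay inside the narrow VENsens range, 3 being below and 2 above it, and the means were 211 ± 1.67 and 205 ± 19.0 CPM. The log2 fold change was -0.04 with a 95% interval from -0.17 to 0.08 (adjusted p = 0.757 in edgeR), and it lay between -0.080 without pair 5 and -0.011 without pair 2 when a pair was left out.

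MS4A1 (ENSG00000156738, GRCh38 chr11:60455752-60470760), which encodes the rituximab target CD20, had 11 to 33 counts per library and 0.479 to 1.55 CPM, with the highest and the lowest value both in VENins lines. Its log2 fold change of 0.08 had a 95% interval from -0.53 to 0.69 (adjusted p = 0.923 in edgeR). MME (ENSG00000196549, GRCh38 chr3:155024124-155183729), a membrane endopeptidase, had 16 to 39 counts and 0.638 to 1.59 CPM, with a log2 fold change of 0.13 (95% interval -0.34 to 0.60, adjusted p = 0.823). With a pair left out MS4A1 ran from -0.27 without pair 1 to 0.30 without pair 5, and MME from 0.026 without pair 3 to 0.31 without pair 2. The intervals leave the direction of both genes undetermined. CD34 (ENSG00000174059, GRCh38 chr1:207880972-207911402), a sialomucin of stem and progenitor cells, had 7 counts over the 5 VENsens and 1 count over the 5 VENins libraries, never more than 2 in a library.

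**Figure D3:**
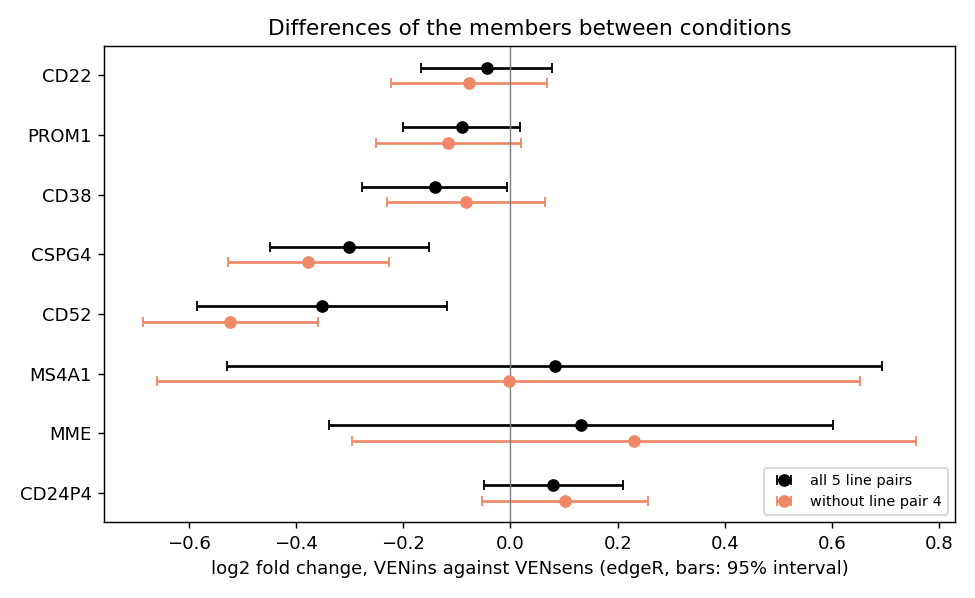
Log2 fold change of VENins against VENsens lines for the 7 tested members and CD24P4, with 95% intervals from edgeR, over all 5 line pairs (black) and without pair 4 (orange). CSPG4 and CD52 lay at -0.30 and -0.35 over all pairs and at -0.38 and -0.52 without pair 4, and the intervals of MS4A1 and MME reached to both sides of 0.

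CD24 (ENSG00000272398, GRCh38 chr6:106969831-106975627, minus strand) was listed at 0 counts in all 10 libraries, while its processed pseudogene CD24P4 (ENSG00000185275, GRCh38 chrY:18992467-18992709, minus strand) held 2144 to 2769 counts per library. The submitters' processing notes name GRCh37, whose sequence was not analysed here. The pseudogene was singled out after its values were seen. The annotated pseudogene has the length of the coding sequence of CD24, 243 bases with the stop codon, and both are printed because they differ at few bases. Capitals mark the bases that differ.
CD24: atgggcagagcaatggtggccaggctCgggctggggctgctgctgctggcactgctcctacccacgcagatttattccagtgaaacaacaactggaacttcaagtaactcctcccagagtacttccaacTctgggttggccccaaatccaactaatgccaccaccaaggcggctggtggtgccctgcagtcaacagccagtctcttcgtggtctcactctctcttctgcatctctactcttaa
CD24P4: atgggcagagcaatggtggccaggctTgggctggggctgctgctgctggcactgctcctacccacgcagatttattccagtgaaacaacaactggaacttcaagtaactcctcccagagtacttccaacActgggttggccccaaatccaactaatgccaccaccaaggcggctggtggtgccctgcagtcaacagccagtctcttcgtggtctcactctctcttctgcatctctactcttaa
They are 99.2% identical, with the differences C27T and T130A, counted from 1 at the A of the start codon, the base of CD24 given before the position and that of CD24P4 after it. Of the 169 windows of 75 bases, a read's length, 67 are the same in both, and the others hold a base that differs. Of the 2439 windows of the longest CD24 transcript, 67 (2.75%) recur in CD24P4. In VENsens lines 1 to 5 CD24P4 was at 98.9, 105.5, 90.0, 102 and 96.4 CPM, and in VENins lines at 101, 103, 113, 102 and 102 CPM. The groups overlapped, and the log2 fold change was 0.08 (95% interval -0.05 to 0.21, adjusted p = 0.549 in edgeR). It was 0.018 without pair 3 and 0.022 with the trend on exon length taken out. Whether the counts of CD24P4 are reads of CD24 was not tested, and no level of CD24 was read from its entry of 0.

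The share of a transcript that recurs in other genes differed between the other members. No window of the longest transcripts of CD22, MS4A1, CD38 and CD52 recurred in a transcript of another gene on either strand. For CSPG4 775 of 8216 windows did (9.43%), 442 of them in AC105020.4, an antisense gene at 0 counts, with which it shares 563 exon bases. For MME 141 windows recurred (2.54%), for CD34 12 and for PROM1 8. PROM1 shares 166 exon bases with FGFBP2 on its own strand (2.23% of its exon length), and CD52 shares 25 with UBXN11 on the opposite strand. The kit did not mark strand, so reads on such stretches cannot be given to a strand. Bowtie2, the aligner in the submitters' processing notes, does not split reads over introns. The share of windows that cross an exon junction was 41.4% for PROM1, 28.6% for CD22, 28.1% for MME, 14.6% for CD52, 9.26% for CD38 and 8.11% for CSPG4. Where such reads were lost, levels per length are too low to a different degree for each gene. Counted per kb of windows that lie in 1 exon, a scale added after the values were seen, CD52 was at 204, PROM1 at 168, CD22 at 91.3, CD38 at 23.0 and CSPG4 at 20.5, with only CD38 and CSPG4 in another order.

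The members differed in how far the lines of 1 condition spread. In VENsens lines CD22 had an SD of 0.01 on the log2 scale, 0.561 times the SD that counting alone gives and at percentile 0.0836 of all tested genes, and CSPG4 had 0.03, at percentile 1.87. In VENins lines the SD was 0.13 for CD22 (percentile 47.7), 0.23 for CSPG4 (74.9) and 0.38 for CD52 (90.9), the last being 11.0 times the counting SD. The median SD of all tested genes was 0.12 in VENsens and 0.14 in VENins lines. PROM1 was among the steadier genes in both conditions, with SDs of 0.04 and 0.07 (percentiles 6.62 and 12.1). CD52 had an SD of 0.08 in VENsens lines (percentile 31.5). For CD38 it was 0.09 in VENsens and 0.16 in VENins lines (percentiles 38.9 and 58.6). MS4A1, with few counts, had an SD of 0.30 in VENsens lines, 0.913 times the counting SD, and of 0.62 in VENins lines, 1.84 times the counting SD and at percentile 98.4. MME, also with few counts, went the other way, with an SD of 0.40 in VENsens lines (percentile 94.2) and 0.32 in VENins lines (85.8). The difference in spread between conditions was not tested.

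The genes whose log2 CPM was most like that of CD52 over the 10 libraries, out of 11137 protein-coding genes ranked, were MDFI (Pearson r = 0.97), the fatty acid transporter SLC27A2 (r = 0.96) and SEL1L3 (r = 0.95). In MDFI too VENins line 4 was the highest and the other VENins lines were below the VENsens lines, at 17.1 to 20.5 CPM in VENsens lines and 7.42, 9.15, 13.5, 28.8 and 13.6 CPM in VENins lines 1 to 5. For CSPG4 they were SEPT5, a septin (r = 0.97), the epimerase DSE (r = 0.97) and INO80, a chromatin remodelling ATPase (r = 0.97). For MME, whose values rest on few counts, they were GCA, SLC41A2 and ZNF79 (r = 0.86, 0.80 and 0.80). These coefficients describe 10 libraries that fall into 2 conditions, each is the highest of many, and no test was made.

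**Figure D4:**
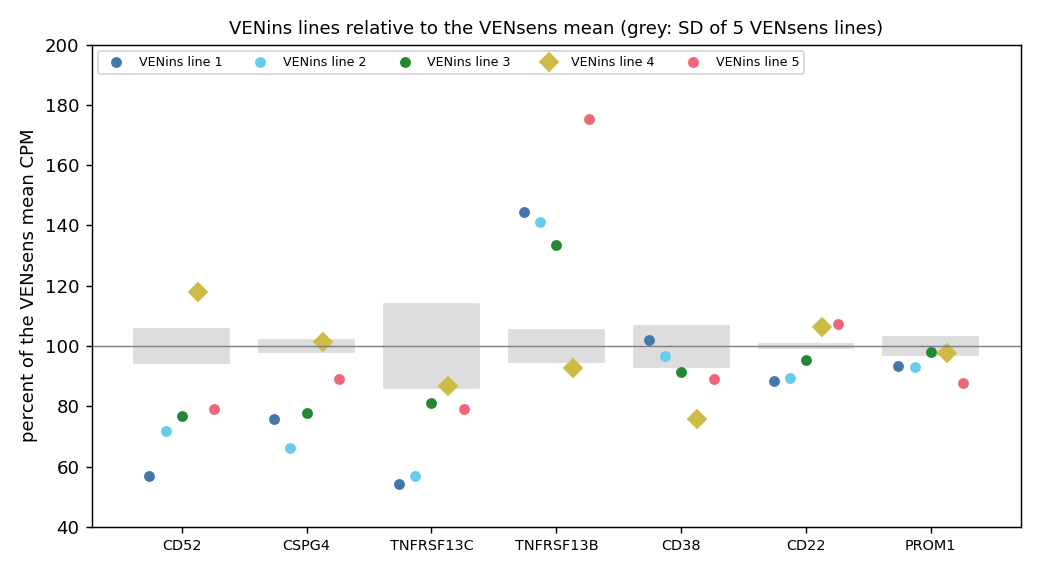
CPM of each VENins line as a percentage of the VENsens mean, for 5 members and for TNFRSF13C and TNFRSF13B, with the SD of the 5 VENsens lines as a grey band. VENins line 4 (diamonds) stood at 118% for CD52, 101% for CSPG4 and 75.7% for CD38.

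Among the other antigens 25 of 36 genes were tested, and 0 passed in edgeR (0.197% of all tested genes), with 15 lower, 10 higher and a median log2 fold change of -0.06. An unadjusted p under 0.05 was found for 9, against 16.2% of all tested genes, and DESeq2 called 1 with and 4 without the line number, against 1.3% and 4.41%. The smallest p-values belonged to TNFRSF13B (TACI) and TNFRSF13C (BAFF receptor), which bind survival factors of B cells. TNFRSF13B was at 31.98, 32.4, 31.9, 36.1 and 32.5 CPM in VENsens lines 1 to 5 and at 47.6, 46.5, 44.0, 30.6 and 57.8 CPM in VENins lines. Of the VENins lines, 4 were above every VENsens line and line 4 was below them all, with a log2 fold change of 0.43 (adjusted p = 0.0967 in edgeR) that became 0.60 without pair 4 (adjusted p = 0.000292), 0.33 without pair 5 and 0.41 without pair 2 (adjusted p = 0.172 and 0.518). TNFRSF13C was at 15.8, 20.2, 15.1, 14.2 and 17.4 CPM in VENsens and at 8.97, 9.40, 13.4, 14.3 and 13.1 CPM in VENins lines. Its log2 fold change was -0.49 (adjusted p = 0.105), without pair 4 it was -0.61 (adjusted p = 0.0117 in edgeR), and without pair 2 it was -0.34 (adjusted p = 0.561). The 2 receptors thus had opposite directions, and in both VENins line 4 was the line nearest to the VENsens mean.

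Among 21 transcription factors of B cells and leukaemia, 19 were tested and 1 passed in edgeR, beside 0.197% of all tested genes. PAX5, the factor that maintains B-lineage identity, fell in VENins lines, from 782, 827, 713, 804 and 790 CPM in VENsens lines 1 to 5 to 632, 584, 615, 676 and 647 CPM. Every VENins line was below every VENsens line, and groups without overlap were found for 781 of all tested genes (4.66%). The log2 fold change was -0.31 (standard error 0.05, adjusted p = 0.0272 in edgeR). With pair 2, 3 or 5 left out PAX5 was no longer called (adjusted p = 0.242, 0.0597 and 0.0647), while the log2 fold change lay between -0.34 and -0.26 with each pair left out. Of the list 11 genes were lower and 8 higher, the median was -0.01, 7 had an unadjusted p under 0.05, against 16.2% of all tested genes, and DESeq2 called 2 genes with and 3 without the line number, against 1.3% and 4.41%.

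The genes around CD22 comprised kinases, phosphatases and adaptors of its signalling and enzymes that make its sialic acid ligands. All 14 were tested, 10 were lower and 4 higher, and the median log2 fold change was -0.07. In edgeR 0 passed (0.197% of all tested genes), with 6 at an unadjusted p under 0.05 (16.2% of all). DESeq2 called 0 with and 3 without the line number (1.3% and 4.41% of all). GNE, which starts sialic acid synthesis, had a log2 fold change of -0.19, from 70.4 ± 3.88 to 61.7 ± 3.16 CPM. ST6GAL1, the transferase that attaches sialic acid in the linkage CD22 binds, stood at -0.25, and the ubiquitin ligase CBL at -0.19, with adjusted p-values of 0.139 to 0.178 for the 3 genes in edgeR.

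For the GPI anchor on which CD52 and CD24 depend, 27 of 29 synthesis genes were tested (1 symbol was not found), with 14 lower, 13 higher and a median log2 fold change of -0.01. In edgeR 0 passed, against 0.197% of all tested genes, and 3 had an unadjusted p under 0.05, against 16.2%. DESeq2 called 0 with and 3 without the line number, where its shares of all tested genes were 1.3% and 4.41%. PIGO and PIGS, which act late in assembly and attachment of the anchor, had log2 fold changes of -0.24 and -0.21. DPM1, a subunit of the dolichol phosphate mannose synthase, had 0.22 (adjusted p = 0.113, 0.123 and 0.149 for the 3 genes in edgeR).

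**Figure D5:**
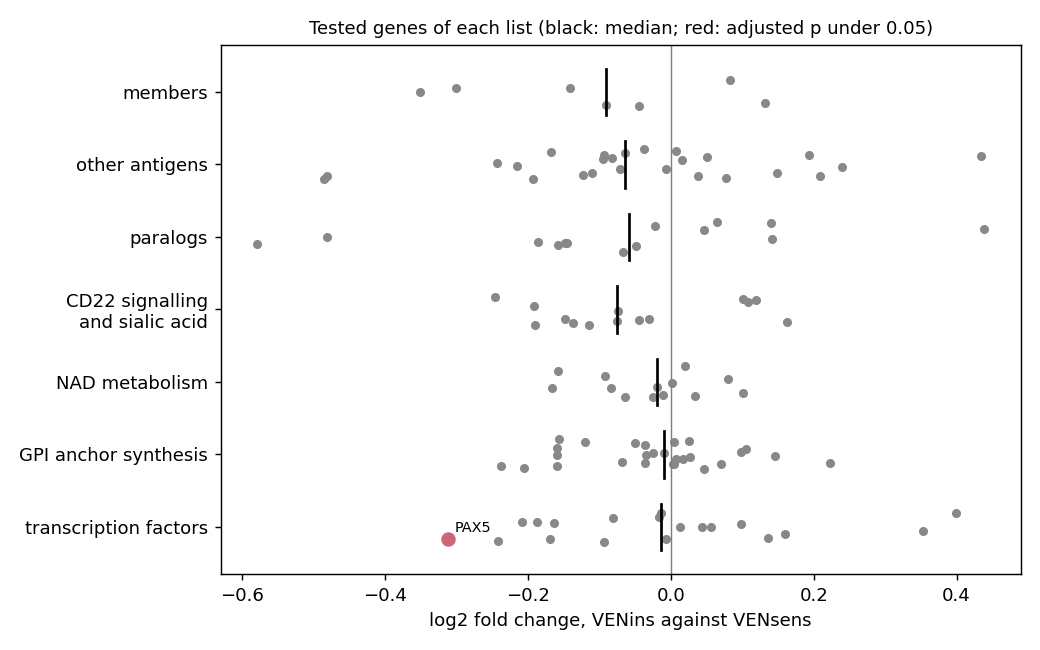
Log2 fold change of VENins against VENsens lines for every tested gene of the members and of 6 lists, 1 point per gene, with the median as a black line and genes with an adjusted p under 0.05 in red. PAX5, at -0.31, is the only gene in red, and the medians lie between -0.09 and -0.01.

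For CD38, the NAD list held 16 genes of synthesis and consumption, of which 13 were tested, 8 lower and 5 higher, with a median log2 fold change of -0.02. In edgeR 0 passed, where 0.197% of all tested genes did, and 0 had an unadjusted p under 0.05 (16.2% of all). DESeq2 called 0 with and without the line number (1.3% and 4.41% of all). The smallest p-values were those of PARP1, QPRT and NAPRT, at -0.08, -0.09 and 0.10. PARP1 was at -0.040 with the trend on exon length taken out, and QPRT at -0.045 without pair 1. Of the 37 relatives of the members by sequence family, 14 were tested and 23 had too few counts. Of the relatives 0 passed in edgeR (0.197% of all tested genes), and 2 had an unadjusted p under 0.05, near the share of 16.2% among all tested genes. DESeq2 called 0 with and without the line number (1.3% and 4.41% of all), and the median log2 fold change was -0.06 with 9 lower and 5 higher. MS4A7, of the family of MS4A1, went from 3.41 ± 0.419 to 2.29 ± 0.417 CPM, with a log2 fold change of -0.58 (adjusted p = 0.0974 in edgeR). PODXL, of the family of CD34, was at 89.8 ± 4.57 and 81.1 ± 3.89 CPM (SD, n = 5 each), and CD33, a relative of CD22, at 2.17 ± 0.355 and 1.61 ± 0.809 CPM.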

How the data were processed

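The authors deposited a table of read counts per gene for each of the 10 libraries, with no normalization applied, and it was used as such. The submitters' processing notes name bcl2fastq 2.20.0.422, Bowtie2 2.3.5.1, SAMtools 1.9, HTSeq 0.9.1 and the builds hg19 and GRCh37. The annotation release and strand setting are not given in the sources used here. Reads not counted on genes, 45.8% to 47.3% of the reads in each file, stayed out of library sizes. Those with low alignment quality made up 24.6% to 26.2% of all reads in a file. Names, lengths and GRCh38 positions came from GENCODE 29, which covered 52526 identifiers.

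Genes passing filterByExpr (minimum count 10, minimum total 15) were normalized by TMM and tested with edgeR 4.0.16 (limma 3.58.1, R 4.3.3) in a model of line number and condition, as in the paired design of the study's methods. DESeq2 1.42.0 was an alternative, and so were RLE factors, library size alone, other filters, no line number, a length trend (spline with 4 degrees of freedom) and each pair left out. Benjamini-Hochberg adjustment covered every tested gene, and genes under 0.05 were called. The F statistic gave the standard errors, and log2 CPM used a prior count of 2. Tables and plots were made in Python 3.11.15 with pandas 2.3.3, numpy 2.4.6 and matplotlib 3.10.9. The code was tested on simulated data. Between libraries of a condition, chi-square divided by its degrees of freedom was 1.93 to 14.4. Motif shares were counted over promoters outside chromosome 8.

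The members and lists were chosen with earlier results of these data known. Named besides the members were, of each list, the genes with an adjusted p under 0.05 or otherwise the 3 smallest p, the 5 other antigens highest per length, and for the 3 most variable members with at least 1 CPM the 3 genes most correlated with each. Of the genes so chosen 1 is not reported here. Marker genes were listed to check cell identity.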

Additional observations from a re-analysis of the deposited data

Results flagged for a closer look

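For the members and the genes named from the lists, the farthest line of each condition was compared with the others in 52 groups of 5 lines. In 5 of them its gap exceeded 0.71 of the group's range, where normally distributed values give about 1 in 20 groups, or 2.6. VENsens line 2 was highest for CD38 (137 CPM), CBL (122 CPM) and GNE (77.3 CPM). VENsens line 4 was highest for TNFRSF13B (36.1 CPM), and VENins line 4 was lowest for CXCR4 (385 CPM). Over all tested genes the same rule picked out 3.79% in VENsens line 2, 0.656% in VENsens line 4 and 0.925% in VENins line 4. The highest share in a line was 3.84%, in VENins line 5. The shares add up over the 5 lines of a condition. Over all tested genes the rule thus picked out more than 1 in 20 groups, and 2.6 is too low for these data. What sets these values was not tested.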

How the results depend on the processing

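Direction and side of the threshold held for CD22, PROM1, CD38 and MME under all alternatives that gave them an adjusted p. DESeq2 gave none for MME and MS4A1. Summing the identifiers of a symbol gave no other value, since each member had 1. CSPG4 kept its direction in all 13 alternatives, with log2 fold changes from -0.38 to -0.24 and adjusted p-values from 0.000235 to 0.486, and was called in 4. CD52 ranged from -0.52 to -0.24, with adjusted p-values from 2.92e-05 to 0.564, and was called in 2. The adjusted p lay between 1.24e-06 and 0.242 for PAX5, 1.48e-06 and 0.518 for TNFRSF13B, and 3.85e-05 and 0.561 for TNFRSF13C.

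The number of tested genes called was 149 with no replicate block, 217 and 739 in DESeq2 with and with no replicate block, 664 with no filter, 50 with the length trend taken out, 6 to 331 with each pair left out, and 783 with no block and without VENins line 4, which was added after seeing the data. Members called numbered 1 in both DESeq2 fits, 2 with no filter, 0 to 2 with each pair left out and 2 in the added alternative. Called genes of the 6 lists numbered 2 with no replicate block, 3 and 13 in DESeq2 with and with no block, 11 with no filter, 0 to 6 with each pair left out and 14 in the added alternative. The median of the members ran from -0.20 to -0.071 with each pair left out (lowest without pair 1) and was -0.045 once the length trend was taken out. Signs turned for MS4A1 without pair 1 (-0.27), without pair 4 (-0.0032) and in the added alternative (-0.011), with 0.30 as the highest value without a pair, and without pair 5 for CD72 (-0.0057), CD79A (-0.020) and NAPRT (-0.0080), whose highest values with a pair left out, all without pair 1, were 0.0943, 0.139 and 0.188. The causes were not tested.

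The line numbers did not pair the libraries in the data. Deviations of same-numbered lines from their condition means correlated at -0.15 to 0.05, and 0 of 5 lines correlated best with its own number. The block changed no member's call. Genes near 1 CPM rest on few counts, which limits MS4A1 and MME.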
